A study of Mus musculus with 9 samples.

Results

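Endothelial genes were followed in bulk RNA of mouse prostate tumours and their metastases. The group holds 10 of the 47069 genes in the count files: Pecam1, Cdh5, Kdr, Flt1, Tek, Tie1, Vwf, Emcn, Eng and Esam. They were listed by symbol as markers of the vessel lining, by no rule on measured values but with earlier results of these data known. All 10 were matched to an Ensembl identifier and passed the filter on low counts. The 9 libraries came from 3 primary prostate tumours, 3 proximal metastases in the epididymal fat and 3 distal metastases. Every library came from C57BL/6 mice, aged about 9 to 10 months, that carried the allele Ctnnb1pc(ex3)delta/+. The metastases and the primary tumours they were compared with therefore carried the same alleles, and no tumour-free tissue was among the libraries. Loss of exon 3 of Ctnnb1 stabilises beta-catenin. The sources used here do not name the Cre line or the cells in which it acts. The samples are described as matched within 3 mice, but the labels do not say which belong together, so each comparison was unpaired and treated the libraries as independent.

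Endothelial cells line blood and lymph vessels and are held together by cadherin and immunoglobulin-family proteins at their junctions. Their growth is driven by vascular endothelial growth factors acting on the receptor kinases KDR and FLT1, and vessel stability by angiopoietins acting on TEK, with TIE1 as its partner. Tumours depend on such vessels for oxygen, and the endothelium of fat, muscle, lung and prostate differs in the genes it expresses. In bulk RNA, fewer endothelial cells in a sample and less RNA of a gene per endothelial cell cannot be told apart.

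Total counts ranged from 28334730 to 40408723 per library, and the 10 genes together held 7364 to 12200 counts. Levels are given as CPM, counts relative to library totals scaled with TMM factors (a trimmed mean of log ratios). Differences are log2 fold changes from edgeR's quasi-likelihood fit of all 9 libraries, and a gene was called where its p, adjusted by Benjamini and Hochberg over 18204 tested genes, was below 0.05. Primary 2 stood apart from the other libraries, with 2.28% of its counts on CT010467.1 and 0.131% on mitochondrially encoded genes, against 0.0654% to 0.236% and 0.868% to 1.18% elsewhere. Primary 3 held seminal vesicle transcripts at a sum of 7501 CPM over 4 genes, against 2.201 to 25.3 CPM in the other libraries. For the distal tissue the labels name both diaphragm and lung. A list of 5 skeletal muscle genes summed to 486 and 690 CPM in distal 2 and 3 and to 6.73 CPM in distal 1. Of 5 lung epithelial genes, the sum was at most 0.125 CPM in a distal library, with Sftpb and Sftpa1 at 0 in all 3. Of 5 epithelial genes, Krt8 stood between 520 and 3768 CPM over the libraries and Krt18 between 786 and 3488 CPM. Cdh1 stood between 211 and 2423 CPM and Epcam between 163 and 380 CPM. Krt5 stood at 15.4, 144 and 1356 CPM in primary 1, 2 and 3 and at 0.633 to 2.79 CPM in the metastases.

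Of the 10 genes, 9 had a negative log2 fold change in proximal and 6 in distal metastases, against 52.8% and 52% of all tested genes. None of the 10 passed the test in any comparison. Their sum was 328, 419 and 349 CPM in primary 1, 2 and 3. It was 202, 270 and 224 CPM in proximal 1, 2 and 3, and 184, 263 and 306 CPM in distal 1, 2 and 3. All 6 metastases lay below all 3 primary tumours on this sum. That separation rested on Vwf in the distal group: without Vwf, an alternative chosen after the values were seen, the sum was 292, 264 and 286 CPM in the primary tumours, and distal 3, at 283 CPM, lay among them. The proximal sums without Vwf, 189, 241 and 207 CPM, stayed below the lowest primary one.

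**Figure D1:**
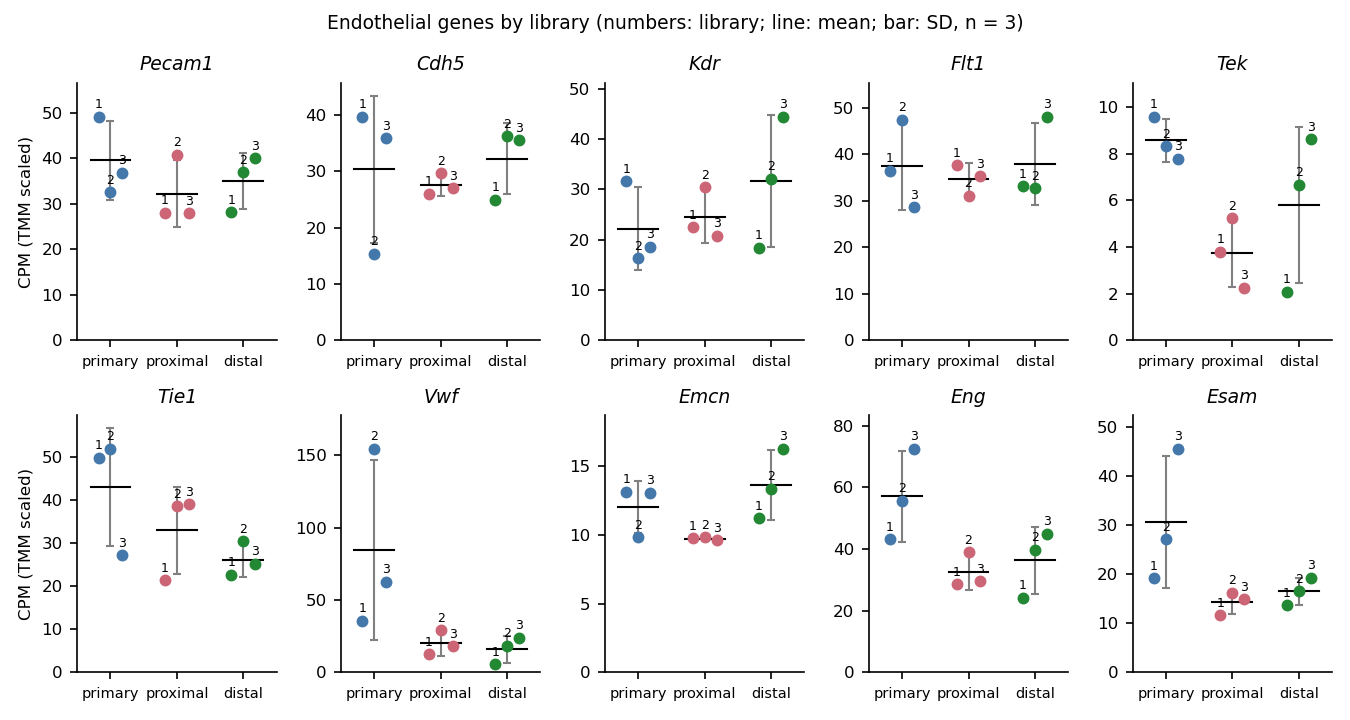
Level of each of the 10 endothelial genes (vertical axis, TMM-scaled CPM from 0) in the 9 libraries. Points are libraries with their numbers, horizontal lines group means and grey bars the SD (n = 3). Vwf reaches 155 CPM in primary 2 and lies between 5.60 and 29.4 CPM in the metastases, whereas Kdr, Flt1 and Cdh5 overlap between all groups.

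In the comparison of proximal metastases with primary tumours, 0 of the 10 genes were called, where edgeR called 0.0494% of all tested genes. At an unadjusted p below 0.05, 3 of the 10 were lower (Vwf, Eng and Esam) and none higher, where 14.3% and 3.86% of all genes were, 18.2% in either direction. DESeq2 called 2 of the 10 (Vwf and Esam), limma-voom none and limma-voom with sample quality weights 1 (Esam), all lower. Of all genes, 7.42% were called lower by DESeq2 and 11.7% with quality weights. These weights were 0.175, 0.0843 and 1.06 for primary 1, 2 and 3 and 1.45 to 2.92 for the metastases. The primary side of the weighted fit thus rested mostly on primary 3, the library with the highest Esam. In 5 of the 10 genes (Tek, Vwf, Emcn, Eng and Esam) every proximal library was below every primary one, which held for 10.7% of all tested genes. The median log2 fold change was -0.34 over the 10 genes and -0.049 over all tested genes, and 9 of the 10 were negative against 52.8% of all genes. Without primary 1 the median was -0.23, and without proximal 2 it was -0.49.

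In the comparison of distal metastases with primary tumours, 0 of the 10 were called as well, where edgeR called 0.0879% of all genes. At an unadjusted p below 0.05, 3 were lower (again Vwf, Eng and Esam) and none higher, against 13.5% and 3.89% of all genes, 17.4% in either direction. DESeq2 called 1 (Vwf) and limma-voom with quality weights 1 (Esam), both lower, where they called 6.81% and 10.7% of all genes lower, and limma-voom called none. Only Vwf was without overlap between the groups, a separation that held for 10.4% of all genes in this direction and for 8.4% in the other. The median log2 fold change was -0.37, against -0.032 over all genes, with 6 of the 10 negative against 52% of all genes. Without distal 1 the median was -0.090, without primary 1 it was -0.22, and without distal 3 it was -0.48. Both comparisons use the same 3 primary libraries, so their values are not independent of each other.

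Calls among the 10 genes differed between methods, and in edgeR they depended on primary 1. Without it, edgeR called Vwf, Eng and Esam lower in the proximal metastases (adjusted p = 0.0321, 0.0415 and 0.0128) and Vwf and Esam lower in the distal ones (0.0231 and 0.0239). In those fits 14.9% and 14.1% of all genes were called lower.

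**Figure D2:**
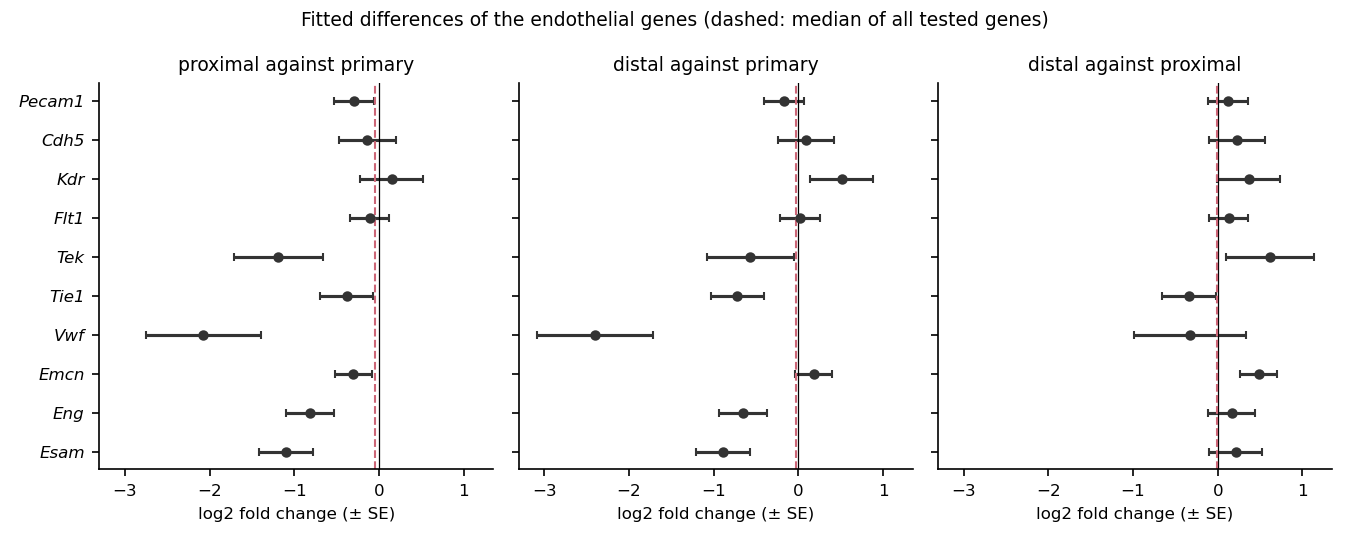
Fitted log2 fold change (horizontal axis) of the 10 genes in the 3 comparisons, with bars for the SE. The dashed line marks the median of all tested genes. Vwf lies farthest from 0 against the primary tumours, at -2.08 and -2.40, and the genes scatter on both sides of 0 between the metastatic sites.

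Vwf encodes von Willebrand factor, the adhesive glycoprotein that endothelial cells store and release to bind platelets (ENSMUSG00000001930, chromosome 6, 125546774 to 125686679 on GRCm38). It stood at 35.8, 155 and 62.8 CPM in primary 1, 2 and 3, at 12.7, 29.4 and 17.97 CPM in proximal 1, 2 and 3, and at 5.60, 18.4 and 23.9 CPM in distal 1, 2 and 3. All primary tumours were above all metastases, with primary 2 far above the rest and distal 1 lowest. The log2 fold change was -2.08 (SE 0.68, edgeR adjusted p = 0.202) in proximal and -2.40 (SE 0.69, adjusted p = 0.170) in distal metastases. Without primary 2 these values became -1.31 and -1.63. Vwf took a varying share of the summed level of the 10 genes: 10.9%, 36.9% and 18.01% in the primary tumours and 3.04% to 10.9% in the metastases. The ratio of Vwf to Cdh5 in CPM was 0.901, 10.05 and 1.75 in primary 1, 2 and 3, 0.488 to 0.991 in proximal and 0.224 to 0.673 in distal libraries, so primary 1 lay inside the proximal range on this measure.

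Platelets and their precursors also carry Vwf. The sum of 8 platelet genes was 10.6 to 12.7 CPM in primary, 8.43 to 11.3 CPM in proximal and 14.1, 30.1 and 134 CPM in distal 1, 2 and 3. Of these genes 7 were tested and none was called in any comparison. Within the distal group Vwf and the platelet sum were both lowest in distal 1 and highest in distal 3. In primary 2, which had the highest Vwf, the platelet sum was 11.1 CPM. The part of platelet RNA in the Vwf values was not tested.

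The junction genes differed among themselves. Esam encodes an immunoglobulin-family adhesion molecule of endothelial tight junctions and platelets (ENSMUSG00000001946, chromosome 9, 37528078 to 37538319). It stood at 19.2, 27.2 and 45.6 CPM in primary 1, 2 and 3, at 11.7, 16.3 and 14.96 CPM in the proximal and at 13.8, 16.6 and 19.3 CPM in the distal libraries. Primary 3 was highest, and distal 3 reached just above primary 1. The log2 fold change was -1.10 (SE 0.32, edgeR adjusted p = 0.174) in proximal and -0.89 (SE 0.32, adjusted p = 0.233) in distal metastases. Without primary 3 these Esam values became -0.69 and -0.48.

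Cdh5, the gene of VE-cadherin, the adhesion protein that defines endothelial adherens junctions (ENSMUSG00000031871, chromosome 8, 104101625 to 104144511), did not show this order. It stood at 39.7, 15.4 and 35.9 CPM in primary 1, 2 and 3, at 26.0, 29.7 and 27.0 CPM in the proximal and at 24.96, 36.3 and 35.5 CPM in the distal libraries. Its lowest value was in primary 2, the library with the highest Vwf, Tie1 and summed level. The log2 fold change was -0.14 (SE 0.33; 95% interval -0.90 to 0.63) in proximal and 0.088 (SE 0.33; -0.68 to 0.85) in distal metastases. Cdh5 is overlapped by an antisense gene, Gm29682, without shared exon sequence.

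Pecam1 encodes CD31, which endothelial cells share with platelets and leukocytes (ENSMUSG00000020717, chromosome 11, 106654217 to 106750628). Its levels were 49.1, 32.5 and 36.8 CPM in primary 1, 2 and 3, 28.0, 40.7 and 27.9 CPM in the proximal and 28.1, 36.8 and 40.04 CPM in the distal libraries. The groups overlapped, and the log2 fold changes of -0.29 (SE 0.24; 95% interval -0.84 to 0.25) and -0.17 (SE 0.24; -0.72 to 0.37) did not pass the test. The proximal Pecam1 value was -0.086 without primary 1.

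Among the receptor kinases, both VEGF receptors overlapped between all groups, and Tek, the angiopoietin receptor, had the most negative log2 fold change in proximal metastases. Kdr, the main signalling receptor for VEGF-A in blood vessels (ENSMUSG00000062960, chromosome 5, 75932827 to 75978458), was measured at 31.6, 16.3 and 18.6 CPM in primary 1, 2 and 3. Its level was 22.5, 30.5 and 20.8 CPM in the proximal and 18.4, 32.1 and 44.5 CPM in the distal libraries. Kdr was the gene with a positive log2 fold change in both comparisons with primary tumours, 0.15 (SE 0.37; 95% interval -0.70 to 1.001) and 0.51 (SE 0.37; -0.34 to 1.37). In proximal metastases the sign changed without primary 2 (-0.032) or proximal 2 (-0.024). The distal Kdr value ranged from 0.20 without distal 3 to 0.88 without primary 1.

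Flt1 encodes a VEGF receptor that binds the ligand tightly and, in a soluble form, sequesters it (ENSMUSG00000029648, chromosome 5, 147561604 to 147726011). It stood at 36.4, 47.4 and 28.6 CPM in primary 1, 2 and 3, at 37.7, 31.1 and 35.4 CPM in the proximal and at 33.1, 32.7 and 48.1 CPM in the distal libraries. Flt1 had the smallest spread of the 10 genes over the 9 libraries, a root mean square deviation of 0.24 log2 units from its mean. Its log2 fold changes were -0.11 (SE 0.23; 95% interval -0.65 to 0.43) and 0.018 (SE 0.23; -0.52 to 0.55). Per length of the annotated exons, the ratio of Flt1 to Kdr was 0.770, 1.95 and 1.03 in primary 1, 2 and 3, 0.682 to 1.139 in proximal and 0.680 to 1.20 in distal libraries. The counts join the soluble and the membrane form.

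Tek, the receptor of the angiopoietins, also called TIE2 (ENSMUSG00000006386, chromosome 4, 94739289 to 94874976), had the lowest mean level per length of the 10 genes over all 9 libraries, although Vwf was lower in the distal group. It stood at 9.59, 8.32 and 7.78 CPM in primary 1, 2 and 3, at 3.79, 5.23 and 2.25 CPM in the proximal and at 2.08, 6.67 and 8.60 CPM in the distal libraries. In CPM the primary tumours lay close together and above every proximal metastasis, while distal 3 lay among them. Log2 fold changes were -1.19 (SE 0.52, edgeR adjusted p = 0.277) in proximal and -0.57 (SE 0.52, adjusted p = 0.511) in distal metastases. The distal Tek value was -0.15 without distal 1 and -0.96 without distal 3. The lowest count of any of the 10 genes in a library was 83, for Tek in distal 1.

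Tie1 encodes an orphan receptor that modulates TEK signalling (ENSMUSG00000033191, chromosome 4, 118471191 to 118490061). It stood at 49.8, 51.9 and 27.3 CPM in primary 1, 2 and 3, at 21.4, 38.5 and 39.05 CPM in the proximal and at 22.6, 30.5 and 25.2 CPM in the distal libraries. Primary 3 lay inside the range of both metastatic groups. Log2 fold changes were -0.38 (SE 0.31, edgeR adjusted p = 0.458) and -0.72 (SE 0.32, adjusted p = 0.290). The proximal Tie1 value ranged from -0.13 without proximal 1 to -0.62 without primary 3. Tie1 and Vwf were the genes of the 10 whose mean was lower in distal than in proximal metastases.

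The 250 bases before the RefSeq start sites of the receptor genes are shown because ETS-family factors, among them ERG and FLI1, are textbook regulators of endothelial genes. Capitals mark the letters GGAAG, a form of the ETS core, on either strand (CTTCC on the printed strand). Of the 10 genes, 6 matched an entry in the RefSeq promoter table (GRCm38.p6): Kdr, Flt1, Tek, Tie1, Emcn and Eng. The 4 printed are those of the receptors and Eng whose RefSeq and GENCODE starts lie within 3 bases of each other. Each is written 5′ to 3′ on the strand of its gene.
Kdr (chr5:75978456-75978705, minus strand): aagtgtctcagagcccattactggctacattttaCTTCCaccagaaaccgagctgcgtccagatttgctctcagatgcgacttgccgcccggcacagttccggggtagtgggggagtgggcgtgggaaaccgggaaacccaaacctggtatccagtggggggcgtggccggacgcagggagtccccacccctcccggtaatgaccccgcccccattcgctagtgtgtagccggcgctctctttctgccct
Flt1 (chr5:147726012-147726261, minus strand): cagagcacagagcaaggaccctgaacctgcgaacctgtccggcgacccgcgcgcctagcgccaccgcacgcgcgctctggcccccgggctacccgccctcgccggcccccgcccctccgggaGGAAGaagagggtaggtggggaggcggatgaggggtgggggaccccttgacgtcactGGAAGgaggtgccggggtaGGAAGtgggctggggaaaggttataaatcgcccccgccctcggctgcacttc
Tek (chr4:94739039-94739288, plus strand): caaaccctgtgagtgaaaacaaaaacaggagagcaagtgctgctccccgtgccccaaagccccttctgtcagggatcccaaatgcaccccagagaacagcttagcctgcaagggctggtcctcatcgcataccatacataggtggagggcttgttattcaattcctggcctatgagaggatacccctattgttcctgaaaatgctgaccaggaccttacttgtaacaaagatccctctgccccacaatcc
Eng (chr2:32646345-32646594, plus strand): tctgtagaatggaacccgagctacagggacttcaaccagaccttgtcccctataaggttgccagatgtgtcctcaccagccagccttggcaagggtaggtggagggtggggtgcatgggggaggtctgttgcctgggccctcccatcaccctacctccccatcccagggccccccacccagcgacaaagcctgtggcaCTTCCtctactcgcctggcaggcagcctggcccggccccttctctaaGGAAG
The letters were found once before Kdr, at 3 places before Flt1, at 2 before Eng and nowhere in this window before Tek. Over all 6 windows, 5 held GGAAG at least once and 4 at least 2 times, against 64.1% and 29.4% of 32841 windows of the same length in the table. None of the 6 windows held AGATAA on either strand, against 9.99% of all windows. None held ACGTG, the core of the hypoxia response element, against 16.6%. No library measured binding at these sites, and a match is only a match of letters.

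Emcn and Eng complete the 10 genes. Eng encodes endoglin, a co-receptor for TGF-beta and BMP ligands that is raised in growing vessels and is also found on macrophages (ENSMUSG00000026814, chromosome 2, 32646595 to 32682669). It stood at 43.1, 55.6 and 72.5 CPM in primary 1, 2 and 3, at 28.6, 39.0 and 29.6 CPM in the proximal and at 24.3, 39.8 and 45.0 CPM in the distal libraries. In CPM every proximal library was below every primary one, and distal 3 was above primary 1. Log2 fold changes were -0.82 (SE 0.28, edgeR adjusted p = 0.217) and -0.65 (SE 0.28, adjusted p = 0.286), the latter -0.41 without distal 1. Eng shares exon sequence with Fpgs on the other strand, and the strand setting of the counting is not given in the sources used here, so its counts can include reads of Fpgs.

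Emcn encodes endomucin, a sialomucin of capillary and venous endothelium (ENSMUSG00000054690, chromosome 3, 137341067 to 137432185). It stood at 13.2, 9.84 and 13.1 CPM in primary 1, 2 and 3, at 9.77, 9.83 and 9.62 CPM in the proximal and at 11.2, 13.4 and 16.3 CPM in the distal libraries. The proximal values were nearly equal, and the separation from the primary tumours rested on 9.84 CPM in primary 2 against 9.83 CPM in proximal 2. Emcn was also the gene of the 10 in which every distal library lay above every proximal one.

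Between the metastatic sites no gene of the 10 was called, as edgeR called 0 of 18204 genes, or 0%, in that comparison. In this edgeR fit, unadjusted p-values below 0.05 were found for 375 genes, 2.06% of those tested (0.269% lower and 1.79% higher). None of the 10 was among them. Emcn fell below this threshold with RLE scaling, at a minimum count of 50 and with DESeq2. It also did so with quality weights and with the compared groups alone, but not with library totals, unfiltered or with plain limma-voom. The edgeR fit used a shared spread per gene from all 9 libraries. The median SD over all tested genes was 0.49 log2 units among the primary and 0.14 among the proximal and the distal libraries. DESeq2 called 85 genes, and limma-voom none with or without quality weights, and none of these calls was among the 10. Of the 10 log2 fold changes of distal against proximal metastases, 8 were positive, with a median of 0.19 against -0.0096 over all genes. Without distal 3 the median was 0.028 and 4 of the 10 were negative, while it was 0.35 without distal 1 and 0.31 without proximal 2. Emcn stood at 0.48 (SE 0.22, 95% interval -0.012 to 0.98, edgeR adjusted p = 0.999985), and 4.03% of all genes were separated in this direction, 3.6% in the other. Tek stood at 0.62 (SE 0.52) and Kdr at 0.37 (SE 0.37), both with overlapping groups. The direction of Vwf, -0.33 (SE 0.66), changed without proximal 2 (0.055) or distal 1 (0.078).

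Proximal 2 was the highest of its group for 8 of the 10 genes, and distal 3 for 8 of the 10, while distal 1 was the lowest of its group for 9. The lowest proximal library was proximal 1 for 5 genes, proximal 3 for 4 and proximal 2 for 1. In the primary tumours the order differed from gene to gene: primary 1 was highest for 5 genes, primary 2 for 3 and primary 3 for 2, and they were lowest for 3, 4 and 3. The mean of the centred log2(CPM + 0.5) values over the 10 genes was nevertheless alike in the primary tumours, at 0.34, 0.33 and 0.34. Proximal 1, 2 and 3 had means of -0.40, 0.022 and -0.31. Distal 1, 2 and 3 had means of -0.61, 0.031 and 0.25. Without Vwf the primary values were 0.33, 0.090 and 0.24, and distal 2 and 3, at 0.091 and 0.30, lay among them. Among the primary libraries the median SD of the 10 genes was 0.43 log2 units, and it was 0.26 among the proximal and 0.31 among the distal ones, against 0.49, 0.14 and 0.14 over all tested genes.

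**Figure D3:**
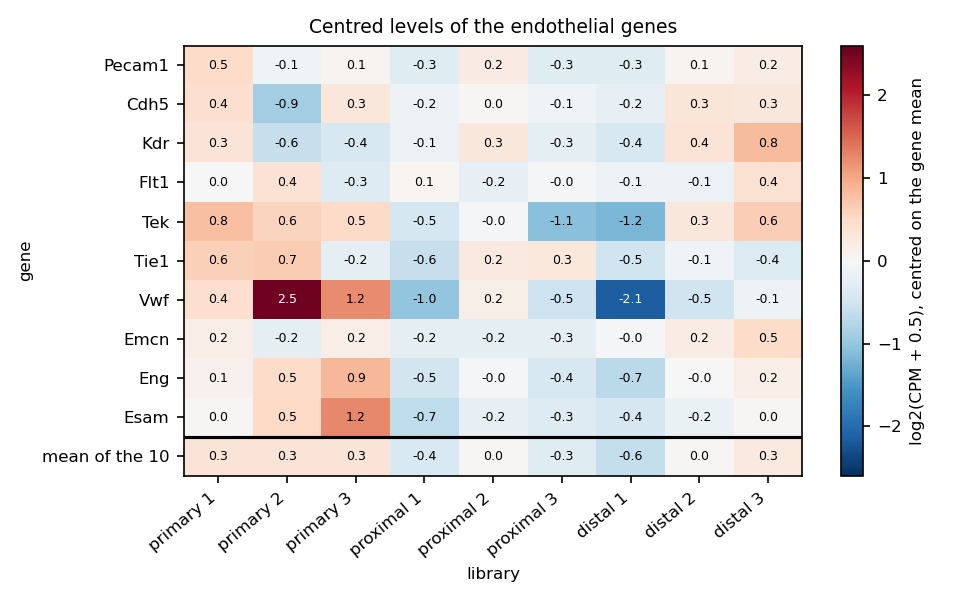
Centred log2(CPM + 0.5) of the 10 genes (rows) in the 9 libraries (columns), with the mean of the 10 in the last row; red is above and blue below the mean of a gene over all libraries. The means of the 3 primary tumours are alike, at 0.33 to 0.34, although single genes go from -0.9 (Cdh5) to 2.5 (Vwf) in primary 2.

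Compared per length of annotated exons, as TPM (counts per length, scaled to a fixed total) computed without TMM scaling, the order of mean levels over the 9 libraries was Eng, Cdh5, Esam, Tie1, Pecam1, Kdr, Flt1, Emcn, Vwf and Tek. Eng averaged 35.4 ± 11.4 TPM (SD, n = 9) and exceeded Cdh5, at 25.5 ± 8.06 TPM, in 9 of 9 libraries. Among Cdh5, Esam (24.3 ± 11.4 TPM), Tie1 (23.7 ± 7.41 TPM) and Pecam1 (20.1 ± 5.48 TPM), no gene exceeded the next in all 9 libraries. Pecam1 exceeded Kdr (10.3 ± 4.21 TPM) in 9 of 9 libraries. Kdr, Flt1 (9.38 ± 1.63 TPM), Emcn (7.67 ± 1.98 TPM), Vwf (7.53 ± 6.26 TPM) and Tek (4.39 ± 2.09 TPM) followed. Among these, too, no gene exceeded the next in all 9 libraries. The order differed between groups: Esam was the second in the primary tumours, at 33.4 TPM, and the fifth in the proximal metastases, at 18.5 TPM. Vwf averaged 14.3 TPM in the primary tumours and was the lowest of the 10 in the distal metastases, at 3.65 TPM against 4.50 TPM for Tek.

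Other cell types varied over the same libraries, and their part in the differences was not tested. The sum of 8 leukocyte and macrophage genes was 302 to 651 CPM in primary, 150 to 280 CPM in proximal and 190 to 332 CPM in distal libraries, with all 8 tested, all 8 negative in proximal metastases and none called or at 0. Proximal 2 and distal 3, the libraries with most endothelial RNA in their groups, also had the highest leukocyte sums there, 280 and 332 CPM, and the highest adipocyte sums, 344 and 228 CPM over 5 genes. Primary 2 had the highest endothelial and leukocyte sums of its group. Without Vwf its endothelial sum, 264 CPM, was the lowest there, against 292 and 286 CPM in primary 1 and 3. Its adipocyte sum was also the lowest there, 7.65 CPM against 250 and 56.7 CPM in primary 1 and 3. Lep, one of these adipocyte genes, was at most 0.117 CPM in any library and at 0 in primary 3 and in the distal group. In distal 1 and 2 the adipocyte sums were 1.03 and 2.07 CPM. Distal 3 also led in red blood cell genes, at 5784 CPM over 5 genes against 436 and 1682 CPM in distal 1 and 2, and none of these was called. Primary 1 (525 CPM) and proximal 1 (201 CPM) marked the ends of the range in the other libraries. Pericyte genes, which mark the cells wrapped around capillaries, spanned 366 to 470, 410 to 426 and 380 to 425 CPM in the primary, proximal and distal groups. Anpep, a peptidase gene, held the largest part of that sum. Without it, an alternative chosen after the values were seen, the other 7 genes summed to 194 to 216 CPM in primary, 134 to 172 CPM in proximal and 134 to 187 CPM in distal libraries, so that every metastasis lay below every primary tumour.

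**Figure D4:**
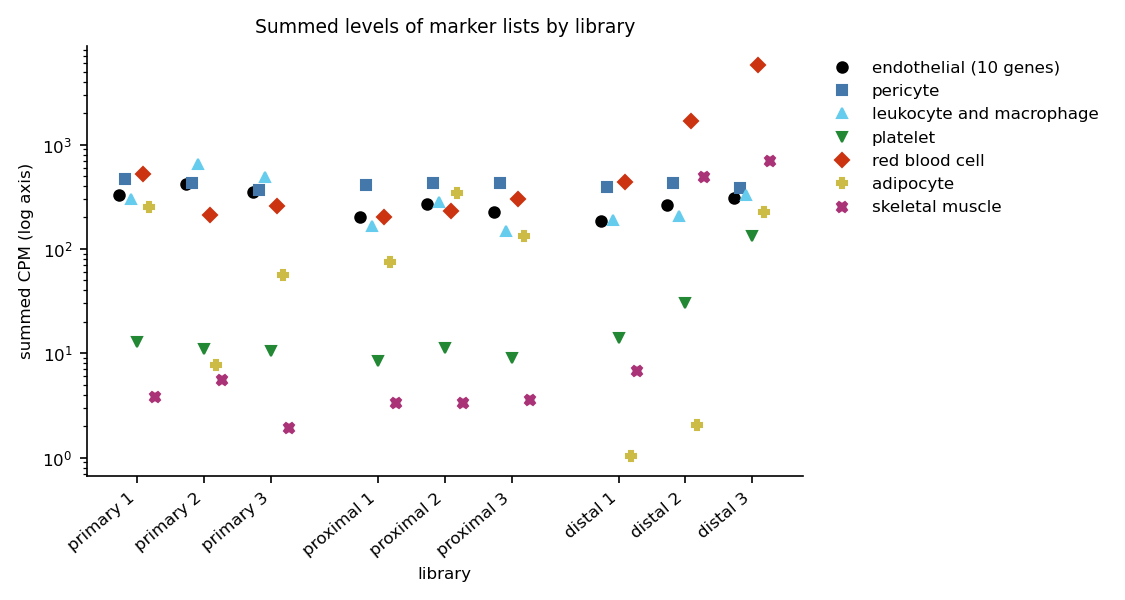
Summed CPM (vertical axis, log scale) of the 10 endothelial genes and of 6 lists of other cell types in each library. Pericyte sums lie between 366 and 470 CPM, of which Anpep alone makes up 172 to 276 CPM, while skeletal muscle sums run from 1.90 to 690 CPM and red blood cell sums from 201 to 5784 CPM.

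The further genes of the vessel wall were taken from lists by role, and none of their members was called in any comparison. Ligands of these receptors were measured in all groups. Vegfa, the main growth factor for KDR, stood at 110, 495 and 188 CPM in primary 1, 2 and 3, at 276, 205 and 282 CPM in the proximal and at 295, 83.2 and 242 CPM in the distal libraries. It was thus highest in primary 2 and lowest in distal 2. Pgf, a ligand of FLT1, stood at 25.6, 5.12 and 10.1 CPM in primary 1, 2 and 3, at 28.0, 34.1 and 39.3 CPM in the proximal and at 46.3, 25.3 and 62.4 CPM in the distal libraries. Every proximal library was above every primary one, which held for 8.68% of all genes, with a log2 fold change of 1.31 (edgeR adjusted p = 0.273). Of the 9 ligand genes, 6 were negative and 3 positive in proximal, and 5 negative and 4 positive in distal metastases. Vegfb averaged 26.1 CPM and Apln, the ligand of the apelin receptor, 18.6 CPM over all libraries.

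Over 9 further lists of endothelial genes, 70 genes were tested, with 48 negative and 22 positive in proximal and 43 negative and 27 positive in distal metastases. Their median log2 fold changes were -0.48 and -0.19. At an unadjusted p below 0.05, 15 were lower and 2 higher in proximal metastases, where 14.3% and 3.86% of all tested genes were. In distal metastases 16 were lower and 1 higher, against 13.5% and 3.89% of all genes. Groups did not overlap for 16 lower and 3 higher genes in proximal metastases, against 10.7% and 8.68% of all genes. In distal metastases this held for 14 lower and 2 higher genes, against 10.4% and 8.4%. By subtype, the 6 arterial genes had medians of -0.88 and -0.99, with 3 of the 6 separated and lower in each comparison, where 10.7% and 10.4% of all genes were. The 4 venous genes had medians of -0.80 and -1.37, with 1 separated and lower in each. The 6 lymphatic genes had medians of -0.16 and -1.24 with no separation, and the 7 capillary genes 0.088 and 0.25.

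Likeness to the 10 genes was measured as the root mean square difference between a gene's centred log2(CPM + 0.5) profile over the 9 libraries and the mean profile of the 10. Among 14803 other genes at a mean of at least 1 CPM the median was 0.50 log2 units. Profiles were not scaled by their spread, so a gene that varies little can lie below this median whatever its pattern. The nearest genes were Mdga1 (0.096), Ccdc114 (0.13), Rilp (0.13), Tal1 (0.13), Mcam (0.16), Adgrf5 (0.16), Epas1 (0.16), Aoah (0.16), St3gal3 (0.16) and Tm4sf1 (0.18). Tal1, a transcription factor of blood and endothelial development, Mcam, an adhesion molecule of pericytes and endothelium, and Adgrf5, an adhesion receptor of endothelium, were on the lists by role. The first 4 were near 1 CPM, where the pseudocount bears on the profile, and with a pseudocount of 2 only 6 of the 10 nearest genes were shared. Among the nearest 100 genes 6 were on the further endothelial lists, 6.0% against 0.453% of all genes ranked. Among the nearest 500 there were 13, or 2.6%.

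Of the 10 genes, each set against the mean of the other 9, Eng (0.23) and Pecam1 (0.24) were closest and Vwf (1.10) farthest. The nearest gene to each was not one of the 10: Hspa12b for Pecam1, Mars2 for Cdh5, Cd300lg for Kdr, Wsb2 for Flt1, Nfam1 for Tek, Tmem8 for Tie1, Zc3h12d for Vwf, Fam72a for Emcn, Eogt for Eng and Trim25 for Esam. Within the 10, Eng and Esam were nearest to each other (0.20), as were Pecam1 and Emcn (0.23).

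Several genes named as endothelial did not have this profile. Of the 70 further endothelial genes, 39 were nearer to it than the median gene, not far above the share that a median gives by definition. More than 1 log2 unit away were 13. Clec14a, a C-type lectin of tumour vessels, stood at 258, 12.5 and 47.6 CPM in primary 1, 2 and 3, at 282, 277 and 139 CPM in the proximal and at 242, 229 and 191 CPM in the distal libraries. Prox1, the transcription factor that sets lymphatic identity, stood at 1199, 44.9 and 242 CPM in primary 1, 2 and 3 and between 1073 and 1486 CPM in the metastases. Both were high in primary 1 and all metastases and low in primary 2. Of the 10 genes, Cdh5 and Kdr also had their lowest value in primary 2, at a smaller distance from the rest. The same order was found for the sphingosine receptor gene S1pr1 (105, 7.03 and 24.8 CPM in the primary tumours, 81.3 to 113 CPM in the metastases) and for Nrp2, a VEGF and semaphorin co-receptor (174, 15.7 and 49.0 CPM, and 170 to 226 CPM). Unc5b, a netrin receptor, Ephb4, the receptor of ephrin-B2, and the ETS factor gene Fli1 were also lowest in primary 2, at 32.2, 24.3 and 4.88 CPM. Alb, the albumin gene, named after its values were seen, also had its lowest value in primary 2, with 4035, 114 and 650 CPM in the primary tumours and 5234 to 7571 CPM in the metastases. The lymphatic gene Lyve1 was also lowest in primary 2, at 30.8, 1.44 and 12.1 CPM in primary 1, 2 and 3 and 2.63 to 20.2 CPM in the metastases. Mmrn1 stood at 18.4, 0.51 and 14.7 CPM in primary 1, 2 and 3 and at 0.30 to 8.17 CPM in the metastases.

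**Figure D5:**
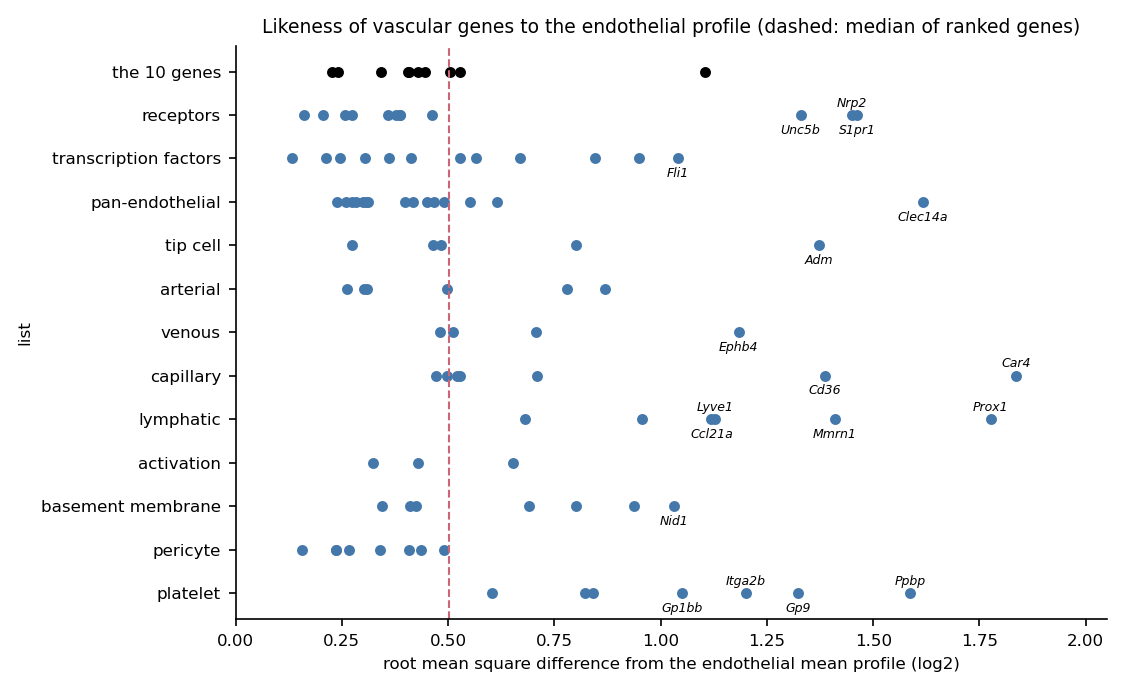
Root mean square difference (horizontal axis, log2 units) of vascular genes from the mean profile of the 10 endothelial genes, by list; each of the 10 is set against the other 9. The dashed line marks the median of all ranked genes, 0.50. All 8 pericyte genes lie below it, and of the endothelial lists Car4, Prox1, Clec14a, S1pr1, Nrp2 and Mmrn1 lie beyond 1.4.

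All 8 pericyte genes were nearer to the profile than the median gene, from Mcam (0.16) to Anpep (0.49), which by itself does not show the same pattern. Of these 8, 6 were negative in both proximal and distal metastases, with medians of -0.42 and -0.26. Rgs5, a regulator of G protein signalling in pericytes, averaged 66.5 CPM over the libraries and Pdgfrb, the receptor that recruits pericytes to vessels, 33.5 CPM, with log2 fold changes in proximal metastases of -0.33 and 0.10. Anpep averaged 241 CPM. Of 7 basement membrane genes, 5 were positive in both comparisons, and the most abundant after Sparc (568 CPM) was Col4a1, a chain of vascular collagen, at 406 CPM. Genes of endothelial activation, Icam1 and Vcam1, had log2 fold changes of -1.63 and -0.71 in proximal metastases (edgeR adjusted p = 0.176 and 0.330).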

How the data were processed

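Bulk RNA from frozen tissue was sequenced by the submitters, 3 libraries per group. The authors deposited raw read counts per Ensembl gene, 1 file per library. FastQC, TopHat2, Bowtie2, HTSeq and DESeq2 with the build GRCm38.p3 are named in the submitters' processing notes; no source used here gives the strand setting, the annotation release or a filter. Symbols and positions came from GENCODE M21 (GRCm38), which named 46488 of 47069 identifiers. Counts were filtered with filterByExpr (minimum count 10), scaled by TMM and tested with edgeR 4.0.16 (robust quasi-likelihood, all 9 libraries, Benjamini-Hochberg adjustment), after the script was tested on simulated data. DESeq2 1.42.0 and limma 3.58.1 were alternatives, with other scalings, filters and each library left out. SE was the log2 fold change divided by the root of F. Reads shared by overlapping genes can shift single counts. Every pair of libraries was checked for duplication, and the most alike still differed by a chi-square of 25.4 per gene, so none was merged. The members and lists were chosen with earlier results of these data known. Of the further lists, called genes (none) and up to 4 genes of highest mean level were named. Krt5, Lep, Sftpa1 and the 10 genes nearest in profile were named besides. Replicate numbers follow accession order and pair nothing. A further allele that all the mice carried, and 1 gene of the platelet list, are not reported here.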

Additional observations from a re-analysis of the deposited data

How the results depend on the processing

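Of 30 member results (10 genes in 3 comparisons), 21 kept their sign in all 17 alternatives and 9 did not. Flt1 in proximal metastases became 0.0016 with library totals and 0.20 with quality weights, and in distal ones -0.017 with RLE, -0.012 at a minimum count of 50 and -0.017 with DESeq2; Cdh5 in distal ones became -0.15 with quality weights. Leaving out each library gave -0.46 to 0.12 (Cdh5), -0.032 to 0.52 (Kdr) and -0.27 to 0.10 (Flt1) in proximal metastases. In distal ones it gave -0.29 to 0.033 (Pecam1), -0.23 to 0.35 (Cdh5) and -0.18 to 0.22 (Flt1). Between the sites it gave -0.078 to 0.22 (Flt1), -0.74 to 0.078 (Vwf) and -0.016 to 0.39 (Eng). Members called were 2 with DESeq2, 1 with quality weights and 0 to 3 leaving out a library in proximal, and 1, 1 and 0 to 2 in distal metastases. Genes called in proximal metastases (9) became 15 with RLE, 26 unfiltered, 23 at a minimum count of 50, 1486 with DESeq2, 1 with limma-voom, 3607 with quality weights, 0 with the compared groups alone and 0 to 5447 leaving out a library. In distal ones (16) they became 10 with library totals, 1444 with DESeq2, 1 with limma-voom, 3126 with quality weights, 0 with the compared groups alone and 0 to 5203. Between the sites (0) they became 85 with DESeq2 and 0 to 38. The mean primary sum was 308 CPM without Eng and 281 CPM without Vwf (365 with both), and 6 of the 10 nearest genes were shared at a pseudocount of 2. The causes were not tested. No paired analysis was possible because the labels do not say which samples came from the same mouse. Groups of 3 limit the precision, and the lowest member count, 83, sets the depth limit for Tek.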
